A study of Saccharomyces cerevisiae with 14 samples.

Results

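The 10 genes described here encode proteins that build iron-sulfur clusters in yeast mitochondria: *ISA1*, *ISA2*, *ISU1*, *ISU2*, *NFS1*, *YFH1*, *GRX5*, *NFU1*, *JAC1* and *SSQ1*. They were taken by name, and all 10 were found among the 6002 protein-coding nuclear genes of the annotation. A ChIP-seq peak was counted for a gene when its position lay at most 2000 bp before the ATG or at most 200 bp after it. By this rule 22 of the 3812 peaks in the 7 deposited peak lists belonged to these genes, with 15 at *ISA1*, 7 at *ISU1* and none at the other 8.

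Iron-sulfur clusters are cofactors of iron and sulfide that carry electrons or hold substrates in enzymes such as aconitase and the respiratory complexes. In mitochondria, Nfs1 takes sulfur from cysteine, the frataxin Yfh1 assists this step, and the cluster is put together on the scaffold proteins Isu1 and Isu2. The chaperones Ssq1 and Jac1 and the glutaredoxin Grx5 then help to release and pass on the cluster, while Isa1, Isa2 and Nfu1 act late, in the formation or delivery of the larger clusters that enzymes such as aconitase need.

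The study mapped where the zinc cluster transcription factor Sef1 of *S. cerevisiae* sits on the genome in respiring and in fermenting cells. All cells were of a single strain, W303ScSef1TAPNB1-1 (*MATa* with *SEF1-TAP::FRT* and *can1-100*, and with the marker alleles *his3-11,15* for histidine, *trp1-1* for tryptophan, *ura3-1* for uracil, *ade2-1* for adenine and *leu2-3, 112* for leucine), in which Sef1 carries a TAP tag, an affinity tag that was used to pull the protein down. YPGly cells (glycerol, which must be respired; 3 repeats) and YPD cells (glucose, which is fermented; 4 repeats) had both been grown overnight in YPD at 30°C, and were fixed 4.5 h after dilution into their medium, at densities of 0.4 and 1 OD600/ml. The 14 samples are 7 ChIP libraries with an input library each, so one peak list stands for each repeat. The YPGly lists held 520, 373 and 395 peaks, and the YPD lists 528, 771, 615 and 610. The paper gives an approximate sequencing depth for its libraries. Read numbers of single libraries are not part of these files, so the exact depth behind each value is unknown. Every group carries the tagged Sef1, and an untagged strain was not analysed here. YPGly repeat 3 differs from the others in that its reads were sequenced in pairs and in a separate run. Fewer cells were harvested per sample from YPGly than from YPD. According to the paper, each YPD sample was split for ChIP into portions as large as a YPGly sample. The DNA of these portions was then pooled. The densities at fixation differed too. The part of cell number, pooling and density in a difference between media cannot be told apart from that of the carbon source.

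The sequences under the strongest peaks of *ISA1* and *ISU1* are shown first because all values below refer to them. Each is 250 bp long and centered on the site, on the + strand of the R64 genome, which is the coding strand of both genes. Capitals mark exact matches to CCGN5CGG, an inverted CCG repeat with a spacer of any 5 bases that equals its own reverse complement, so that a match counts on both strands.
ISA1, chrXII:86901-87150: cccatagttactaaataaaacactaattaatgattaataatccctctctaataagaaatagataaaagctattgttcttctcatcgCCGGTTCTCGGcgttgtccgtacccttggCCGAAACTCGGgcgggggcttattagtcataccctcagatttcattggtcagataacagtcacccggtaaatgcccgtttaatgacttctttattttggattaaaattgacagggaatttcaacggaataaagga
ISU1, chrXVI:297107-297356: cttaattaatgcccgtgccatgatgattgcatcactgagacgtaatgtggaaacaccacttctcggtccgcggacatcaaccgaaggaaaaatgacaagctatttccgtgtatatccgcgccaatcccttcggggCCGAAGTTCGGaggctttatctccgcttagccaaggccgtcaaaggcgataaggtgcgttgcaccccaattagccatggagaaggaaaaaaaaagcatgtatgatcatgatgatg

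The first comparison asked which of the assembly genes had Sef1 at their promoters. *ISA1* and *ISU1*, a late-acting assembly protein and the main scaffold, had a peak in each of the 7 lists. Among all genes, the share with a peak in the window was 11.8%, 9.03% and 9.2% in the YPGly lists and 11.4%, 16%, 13.1% and 13.6% in the YPD lists. Peaks that overlapped were merged into sites, and a site called in at least 3 repeats of a medium was kept, which left 645 of 1066 sites. Such a site lay in the windows of 2 of the 10 assembly genes (20%), against 870 of all 6002 genes (14.5%). With so few genes, the count itself does not set the assembly genes apart from other genes. Both sites were strong in the lists, as described next, though the genes were chosen with earlier results of these data known.

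**Figure D1:**
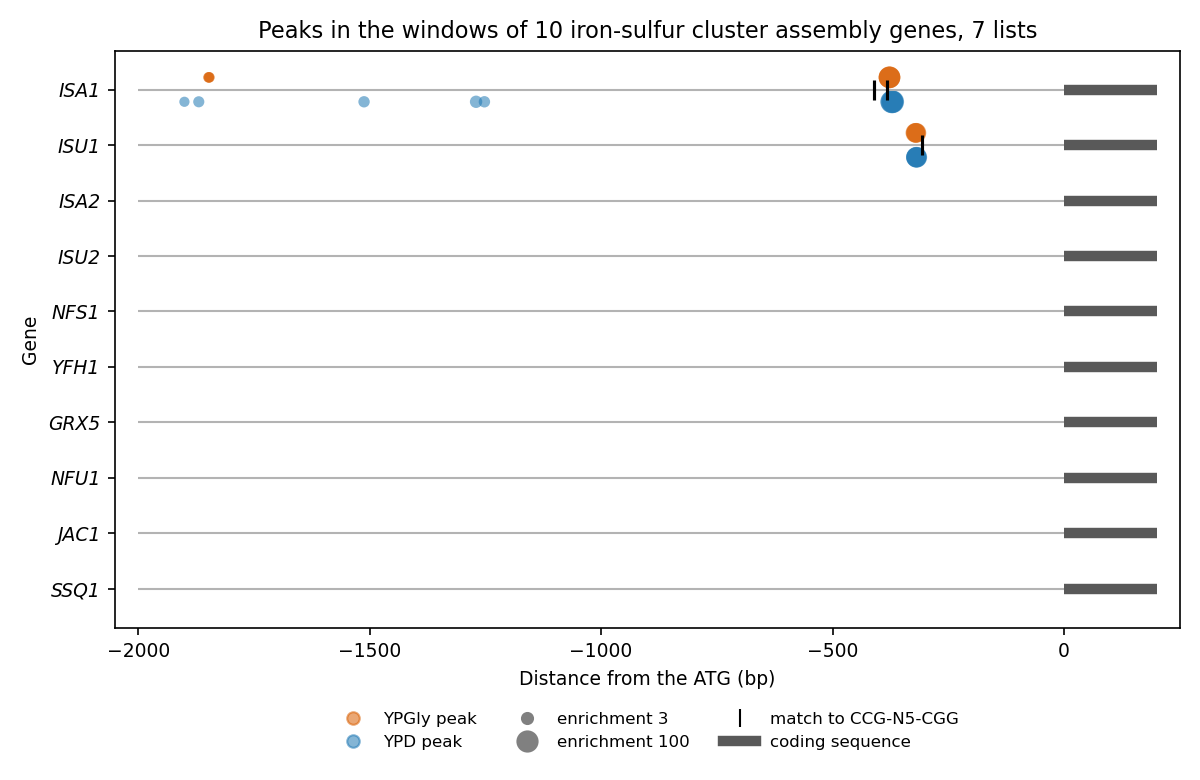
Peaks of the 7 lists in the windows of the 10 genes, by distance from the ATG in bp, with YPGly peaks drawn above and YPD peaks below the line of each gene and the area of a point growing with the enrichment on a log scale. *ISA1* and *ISU1* each carry a cluster of large points close upstream of the ATG, next to the matches to CCGN5CGG (black ticks), *ISA1* also carries small points farther upstream, and the other 8 windows are empty.

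*ISA1* (YLL027W, chromosome XII, 87403 to 88155 on the + strand) had its strongest peak between genes, 377 bp upstream of the ATG by the center of the merged site (XII, 87026). The enrichment, which is the fold ratio of ChIP over input that the peak caller estimated, was 210.5, 176 and 230.5 in YPGly repeats 1 to 3, against 398, 206, 292 and 359 in YPD repeats 1 to 4. The groups overlapped, since YPD repeat 2 lay below YPGly repeats 1 and 3. The means were 206 ± 27.7 in YPGly (SD, n = 3) and 314 ± 84.1 in YPD (SD, n = 4). For comparison, the median peak of a list had an enrichment of 2.13 to 2.32 in the YPGly lists and 1.47 to 2.07 in the YPD lists. This placed the peak within the top 0.577 to 0.804% of the peaks of a YPGly list and the top 0.130 to 0.328% of a YPD list. The false discovery rate (FDR) of this peak was the lowest value that its list contains, in each of the 7 lists. Weaker peaks share this lowest value, so it does not set the peak apart. In YPGly repeat 1, the peak 1846 bp upstream of the ATG, with an enrichment of 2.59, had the same FDR of 0.0011. The same site lies 1597 bp upstream of *HSP104*, which encodes a protein disaggregase and is the next gene downstream of *ISA1*.

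*ISU1* (YPL135W, chromosome XVI, 297553 to 298050 on the + strand) had a single peak in each list, between genes, with the site center 321 bp upstream of the ATG (XVI, 297232). The enrichment was 89.1, 71.9 and 82.7 in YPGly repeats 1 to 3, against 128, 86.3, 94.5 and 131 in YPD repeats 1 to 4. The groups overlapped again, and only through YPD repeat 2, which lay below YPGly repeat 1. The means were 81.2 ± 8.70 in YPGly (SD, n = 3) and 110.1 ± 23.0 in YPD (SD, n = 4). The peak was within the top 2.12 to 2.68% of a YPGly list and the top 0.778 to 1.14% of a YPD list. As at *ISA1*, the FDR was the lowest of the list in each of the 7 lists, a value that weaker peaks share. *GIP3*, which is read in the opposite direction from the other side of the site and encodes a protein that binds the phosphatase Glc7, had the same peak 585 bp upstream of its ATG, so the peak lists do not assign the site to one of both genes.

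**Figure D2:**
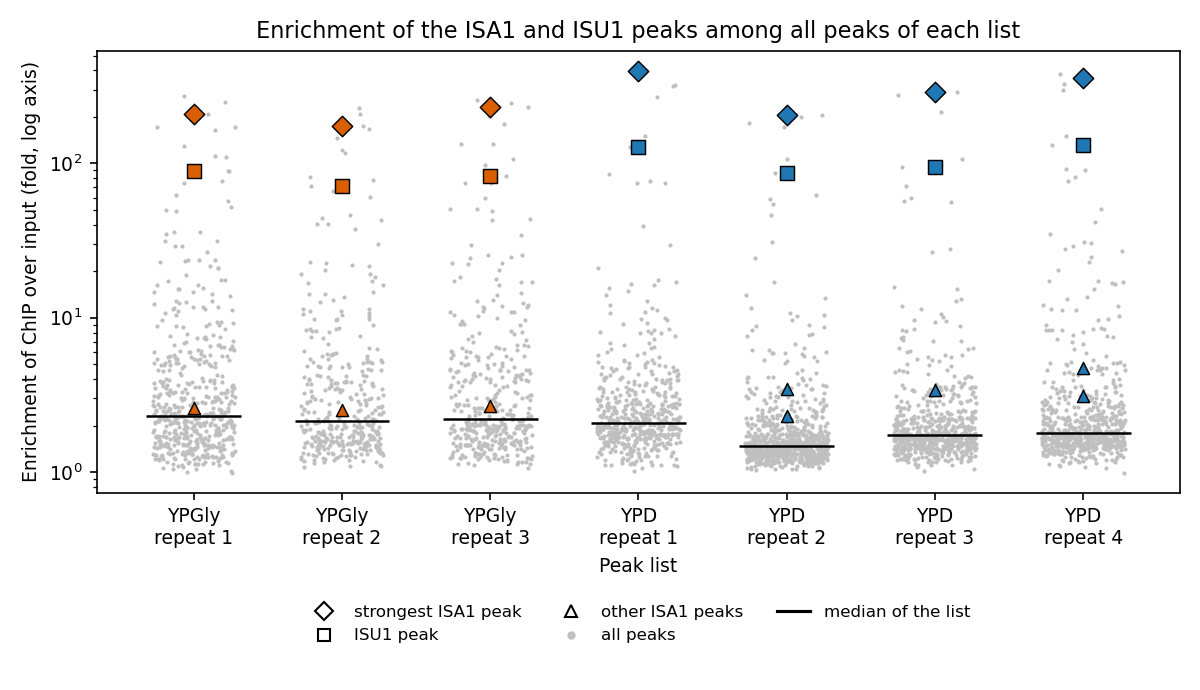
Enrichment of ChIP over input (fold, log axis) of every peak in the 3 YPGly and 4 YPD lists, with the strongest *ISA1* peak as diamonds, the *ISU1* peak as squares, further *ISA1* peaks as triangles, other peaks as grey dots and the median of each list as a line. The *ISA1* diamonds (176 to 230.5 in YPGly, 206 to 398 in YPD) and *ISU1* squares (71.9 to 89.1 in YPGly, 86.3 to 131 in YPD) lie near the top of every list, while the triangles lie between 2.29 and 4.75.

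The other 8 peaks at *ISA1* were weak, and each lay inside the coding sequence of *TPO1*, the upstream neighbor, which encodes a polyamine transporter. In YPGly, each list had one, at 1846, 1847 and 1848 bp upstream of the *ISA1* ATG, with enrichments of 2.59, 2.54 and 2.67. These merged with peaks of YPD repeat 2 (1900 bp upstream, 2.29) and YPD repeat 4 (1869 bp upstream, 3.12) into a site centered 1856 bp upstream, which the 3 YPGly lists and 2 of the 4 YPD lists contain. The YPD lists had 3 further peaks between these positions and the main site: 1252 bp upstream in repeat 2 (3.43), 1512 bp upstream in repeat 3 (3.37) and 1270 bp upstream in repeat 4 (4.75). None of the 3 belonged to a site with calls in enough repeats. YPD repeat 1 had no peak in the window but the strongest one.

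Just outside the windows, further peaks flanked both genes. Between *ISA1* and *HSP104*, 925 to 940 bp downstream of the *ISA1* ATG, the enrichment was 5.72, 4.87 and 4.57 in YPGly repeats 1 to 3, against 11.2, 9.0, 9.39 and 11.2 in YPD repeats 1 to 4. Here the YPGly values all lay below the YPD values, though enrichments of separate lists have no common scale. Ranked by enrichment within each list, this site also had the lower place in YPGly without overlap. The same was found for 71 of the 203 sites called in all 7 lists (35%). In the coding sequence of *ISU1*, 300 to 353 bp downstream of the ATG, a peak was listed in YPGly repeats 1 and 2 (3.29 and 3.29) and in YPD repeats 1, 3 and 4 (5.87, 4.58 and 4.90). Farther downstream, YPD repeat 3 had peaks at 671 bp (3.43) and 1051 bp (2.02) and YPD repeat 4 had one at 696 bp (3.22), while no YPGly list had a peak there. These peaks do not count for *ISA1* or *ISU1* by the window used, and they are given as values only.

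No peak of any list fell in the windows of *ISA2*, *ISU2*, *NFS1*, *YFH1*, *GRX5*, *NFU1*, *JAC1* and *SSQ1*. These include the genes for the cysteine desulfurase, frataxin, both dedicated chaperones and the glutaredoxin. They also include the partners closest to the genes with a site, *ISA2* beside *ISA1* and the paralog *ISU2* beside *ISU1*. Nearest peaks were picked by their distance beyond the edge of the window, which reaches farther upstream than downstream. A downstream peak closer to the ATG could thus be passed over. The peak nearest to the window of *ISA2* (YPR067W, chromosome XVI, 682220 to 682777) lay 3069 bp upstream, 1069 bp beyond the window. It lay in the open reading frame YPR064W and was strong, with an enrichment of 74.4 in YPD repeat 1. *NFS1* (YCL017C) had its nearest peak 3356 bp downstream of its ATG and *NFU1* (YKL040C) 5504 bp downstream, with enrichments of 1.65 in YPD repeat 3 and 1.74 in YPGly repeat 1. *GRX5* (YPL059W) had its nearest peak 6248 bp downstream (5.12, YPGly repeat 1) and *YFH1* (YDL120W) 11455 bp upstream (1.33, YPD repeat 2). For *SSQ1* (YLR369W), *JAC1* (YGL018C) and *ISU2* (YOR226C) the nearest peaks were 15715 bp downstream, 16226 bp downstream and 18108 bp upstream of the ATG. A list holds called peaks only, so weaker signal in these 8 windows could not be read from it.

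The next comparison, between YPGly and YPD, asks how sites called in both media rank when cells respire and when they ferment. Sites missing from any of the 7 lists are left out, so it cannot show whether Sef1 sits on the same sites in both. Enrichments of separate lists have no common scale, so each site was ranked by its enrichment within a list among the 203 sites called in all 7 lists, with 1 as the highest. The *ISA1* site held rank 3 in YPGly repeats 1, 2 and 3, against rank 1 in YPD repeats 1, 2 and 3 and rank 2 in YPD repeat 4. The ranks of the media did not overlap, and the mean rank of *ISA1* was 1.75 places lower in YPGly. The exact permutation test over the 35 ways to assign the lists gave p = 0.0571 (two-sided), and p = 0.0866 after Benjamini-Hochberg adjustment over the 203 sites.

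The *ISU1* site held ranks 11, 10 and 10 in YPGly repeats 1 to 3, against rank 6 in YPD repeats 1, 2, 3 and 4. Its mean rank was 4.33 places lower in YPGly, again with no overlap. The two-sided exact permutation test gave p = 0.0286, the smallest that 3 against 4 lists allow, and an adjusted p = 0.0523 over the 203 sites. Neither site passed the threshold of 0.05 after adjustment. No site of the 203 did, with 111 at an unadjusted p below the threshold and 0.0523 as the lowest adjusted p by this test. Ranks that did not overlap, with the lower place in YPGly, were found for 71 of the 203 sites (35%), so this pattern at *ISA1* and *ISU1* is shared with many sites. When peaks were ordered by the score of ChIP against input in place of the enrichment, *ISA1* was at place 2 in the 3 YPGly lists and at places 1, 2, 1 and 1 in the YPD lists, which overlap. *ISU1* was at place 10 in the 3 YPGly lists and at place 5 in the 4 YPD lists by score.

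**Figure D3:**
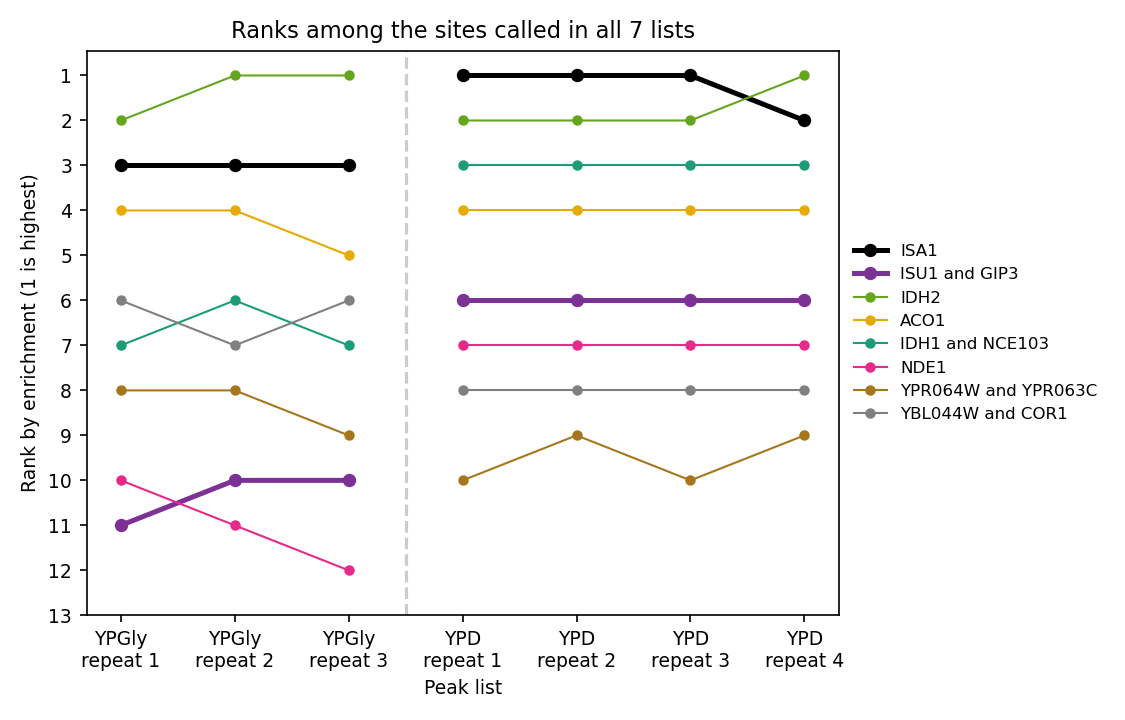
Rank by enrichment among the 203 sites called in all 7 lists (1 is the highest, at the top), in 3 YPGly lists on the left and 4 YPD lists on the right, with thin lines for the sites whose enrichments were most like those of *ISA1* and *ISU1* and lines drawn only to connect the points of a site. *ISA1* holds place 3 in the YPGly lists and places 1, 1, 1 and 2 in the YPD lists, and *ISU1* holds places 11, 10 and 10 in the YPGly lists and place 6 in the YPD lists.

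On a log2 scale the difference depended on whether the lists were set to a common level. Without centering, log2 enrichment in YPGly minus YPD was -0.58 for *ISA1* (p = 0.114, exact permutation test) and -0.42 for *ISU1* (p = 0.143, exact permutation test). The shared sites as a whole went the other way: the median of their 203 single shifts was 0.40 on the log2 scale. The median enrichment of the shared sites, a different quantity, was 4.06 in YPGly and 2.4 in YPD. With each list centered on its median shared site, the differences were -1.28 for *ISA1* and -1.12 for *ISU1*, each with an adjusted p = 0.0395 over the 203 sites by the exact permutation test. On this centered scale 147 of the 203 sites passed the threshold. A culture holds many cells, so sites bound in fewer cells and sites bound for less time in each cell cannot be told apart.

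The ratio of both sites within a list needs no scale between lists. The enrichment at *ISA1* was 2.36, 2.44 and 2.79 times that at *ISU1* in YPGly repeats 1 to 3, against 3.11, 2.39, 3.09 and 2.73 times in YPD repeats 1 to 4. The values overlapped widely. The log2 ratio averaged 1.34 ± 0.13 in YPGly (SD, n = 3) and 1.49 ± 0.18 in YPD (SD, n = 4), a difference of -0.16 that the exact permutation test did not set apart (p = 0.314, two-sided). *ISA1* was the more enriched of both genes in 7 of 7 lists.

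Position was a readout that the ranks did not use. The *ISA1* peak lay at XII 87026 in YPGly repeats 1, 2 and 3, against 87031, 87033, 87031 and 87033 in YPD repeats 1 to 4. It was therefore 6 bp farther from the ATG in YPGly by the means, with no overlap, a pattern that 59 of the 203 shared sites (29.1%) also had in either direction. The *ISU1* peak lay at XVI 297234, 297233 and 297232 in YPGly, against 297235, 297234, 297234 and 297234 in YPD. These positions overlapped, and their means differed by 1.25 bp. Peaks of the lists were given intervals of 190 to 260 bp, so shifts of this size are small beside the width of a peak.

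Both strong sites contained CCGN5CGG close to the peak. The study derived its Sef1 motif, a pair of CGG triplets with the same spacer, from the strongest YPGly peaks of these data, so the matches at *ISA1* and *ISU1* are a description and not independent evidence for the motif. At *ISA1* there were 2 matches, CCGGTTCTCGG (XII, 86987 to 86997) and CCGAAACTCGG (XII, 87016 to 87026). The peak lay 5 bp downstream of the center of the second match in the YPGly lists, and 10 to 12 bp downstream in the YPD lists. At *ISU1* there was 1 match, CCGAAGTTCGG (XVI, 297242 to 297252), and the peak lay 13 to 15 bp upstream of its center in the YPGly lists and 12 to 13 bp upstream in the YPD lists. Of all 645 kept sites, 61 (9.46%) held a match within 250 bp and 7 (1.09%) held at least 2, as the *ISA1* site did. The weak site 1856 bp upstream of *ISA1* held none.

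**Figure D4:**
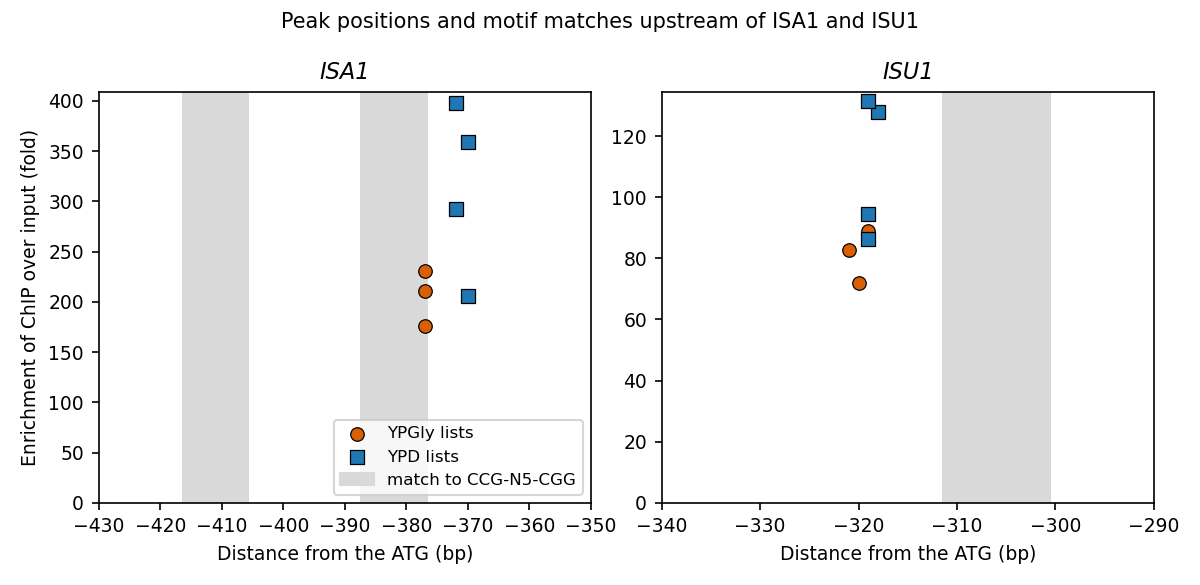
Enrichment of ChIP over input (fold) against the position of the peak relative to the ATG (bp) for the strongest *ISA1* peak on the left and the *ISU1* peak on the right, with YPGly lists as circles, YPD lists as squares and matches to CCGN5CGG as grey bands. At *ISA1* the 3 circles stand at -377 on the edge of the second match and the 4 squares at -372 and -370, and at *ISU1* all points stand between -321 and -318, left of the match.

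The windows of the 8 assembly genes without a peak had no match to CCGN5CGG. In the whole annotation 451 of 6002 genes (7.51%) had a match in the window, and 147 of these 451 (32.6%) also had a kept site. Within 500 bp upstream of the ATG, where the *ISA1* and *ISU1* matches lie, 128 genes (2.13%) had one. A match is a description of the letters and not of binding: of 336 matches in the nuclear genome, 68 (20.2%) lay in the windows of kept sites. Single CCG or CGG triplets, counted over 500 bp upstream, numbered 12 at *ISA1* and 13 at *ISU1*, against 4 to 11 at the other 8 genes and a median of 5 over all genes. *ISU2*, with 11, came closest to its paralog, though no peak was called there.

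The same 11 bases did not carry the same enrichment at other places. CCGAAACTCGG, the match nearest to the *ISA1* peak, occurs 4 times in the nuclear genome. At *ERG29*, the only one of the other 3 places in a kept site, peaks of 7 lists had enrichments of 1.41 to 3.48, and at *OSH6* peaks of 2 lists had 1.23 and 2.49. At YOL163W no list had a peak within 125 bp of the match. The other *ISA1* match, CCGGTTCTCGG, occurs once more, in the windows of *UBC1* and *RSM24*, and no list had a peak within 125 bp of it. The *ISU1* match, CCGAAGTTCGG, was found nowhere else. These other places were chosen by sequence alone.

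The sites with enrichments most like those of *ISA1* over the 7 lists, by the distance between their log2 enrichments, were those of *IDH2* (distance 0.58), *ACO1* (0.92) and *IDH1* with *NCE103* (1.24). Idh1 and Idh2 are the subunits of the mitochondrial NAD-dependent isocitrate dehydrogenase, Aco1 is mitochondrial aconitase, itself an iron-sulfur enzyme, and Nce103 is a carbonic anhydrase. The *IDH2* site had 250.3, 228 and 257 in YPGly and 322, 201, 276 and 378 in YPD. It stood above *ISA1* in each YPGly list and below it in YPD repeats 1, 2 and 3. In YPD repeat 2 the lower bound that the peak caller gave for *ISA1*, 192, lay under the *IDH2* estimate of 201. In YPD repeat 3 the lower bound for *ISA1*, 271, lay under the estimates of 276 for *IDH2* and 276 for *IDH1*, so the first place of *ISA1* is not firm in these 2 of the 3 lists that it leads. In YPGly the site of *HAP4* with *KTI12* also stood above *ISA1*, with 275 in repeat 1, 208 in repeat 2 and 248 in repeat 3. Hap4 is the regulatory subunit of the Hap complex that activates respiratory genes. Below *ISA1* came *ACO1* in YPGly repeats 1 and 2 (173 and 166) and YGR067C in YPGly repeat 3 (203), and *IDH1* with *NCE103* in YPD repeat 4 (329).

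For *ISU1* the most alike sites were those of *NDE1* (distance 1.01), which encodes an NADH dehydrogenase on the outer face of the inner mitochondrial membrane, YPR064W with YPR063C (1.51) and YBL044W with *COR1* (1.83), which encodes a core subunit of the cytochrome bc1 complex. *NDE1* had 89.4, 66.2 and 74.3 in YPGly and 85.5, 62.2, 71.5 and 92.2 in YPD. It ranked just above *ISU1* in YPGly repeat 1, by 89.4 to 89.1, and below it in the other 6 lists. The YPR064W site, which is the peak nearest to the window of *ISA2*, had 112, 81.4 and 97.0 in YPGly and 74.4, 54.7, 56.1 and 81.0 in YPD. It stood above *ISU1* in each YPGly list and below it in each YPD list. The next site above *ISU1* was that of *ADR1*, an activator of genes for nonfermentable carbon, in YPGly repeat 2 (78.5), the YPR064W site in YPGly repeat 3, and the *HAP4* site in the YPD lists (107 to 149.7). Next below it were *UPS2* with *TAG1* in YPGly repeat 1 (76.7), *NDE1* in YPGly repeat 2 and *DCP2* with *MLS1* in YPGly repeat 3 (75.0). CCGN5CGG matches were found at *IDH2* (2), *IDH1* (1), *NDE1* (1) and the *COR1* site (2), and none at *ACO1* or YPR064W.

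Genes of the wider iron-sulfur pathway were looked up in fixed lists. For scale, the median peak of a YPD list had an enrichment of 1.47 to 2.07. Of 15 other genes for mitochondrial assembly and export, 3 had a kept site (20%), which is near the share of 14.5% over all genes. *ISD11*, which encodes the partner protein of Nfs1, had no peak in YPGly and a site that reached 1.56 ± 0.27 in YPD (SD, n = 4). *YAH1*, for the ferredoxin of the pathway, had 1.46 in YPGly repeat 1 and 1.48 ± 0.12 in YPD (SD, n = 4), at a site nearer to *ATG41*. *ERV1*, for a thiol oxidase of the intermembrane space, had no peak in YPGly and 1.74 ± 0.18 in YPD (SD, n = 4), at a site nearer to *MSP1*. These 3 sites were each far below those of *ISA1* and *ISU1*. The YPD lists were longer than the YPGly lists, and the share of all kept sites without a YPGly peak was not counted. Of the 10 genes of the cytosolic assembly machinery, none had a peak in any list. Among all genes, the share with a peak was 9.03 to 16% in single lists, and the share with a kept site was 14.5%. The share of all genes with a peak in any of the lists, which would be the like measure, is not given here. With so few genes, the lack of a peak does not set the cytosolic assembly genes apart from other genes.

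Among genes for cytosolic or nuclear proteins that carry the clusters, 2 of 17 (11.8%) had a kept site, again near the share over all genes. Of the genes for mitochondrial proteins that carry them, *ACO1* had a strong site, at 173 ± 7.24 in YPGly (SD, n = 3) and 239 ± 56.5 in YPD (SD, n = 4). *GRX3*, for a cytosolic glutaredoxin, had 1.49 in YPGly repeat 1 and 1.76 ± 0.20 in YPD (SD, n = 4). *APD1* had 1.17 ± 0.10 in YPGly (SD, n = 3), against 1.18 and 1.33 in the 2 YPD lists that called it, at a site shared with *TBS1*. Of the kept sites described in these lists, those of *ISA1*, *ISU1* and *ACO1* had an enrichment above 10, and the others all lay below 5.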

How the data were processed

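Sef1-TAP ChIP-seq peak lists of 3 YPGly and 4 YPD biological repeats were analysed. The submitters' processing notes name Trimmomatic 0.36, Bowtie2 2.3.3, FastQC 0.11.8, DiffBind 2.10.0 and genome build R64. The peak caller is not given in the sources used here. The authors called peaks per ChIP library against its input and did not pool repeats. The deposited score sets the signal of the ChIP against that of the input, the deposited enrichment is a fold ratio of ChIP over input with a lower bound, and the FDR is the q-value of each peak from the authors' calling program, deposited as its −log10 in the interval lists. Interval lists and position lists held the same peaks, and positions were read as 1-based. Some YPGly samples that hold a list are titled as ChIP and described as paired with a ChIP, so the description was followed.

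Genes came from the RefSeq annotation of R64 (GCF_000146045.2), the assembly that the authors used. Intervals overlapping by at least 1 bp were merged, and sites called in at least 3 repeats of a medium were kept. For a site with more than 1 peak in a list, their mean was used. Ranks and ratios were tested by exact permutation over the lists (two-sided, threshold 0.05), with Benjamini-Hochberg adjustment of rank tests over the 203 shared sites. CCGN5CGG was searched as an exact match. Precision rests on the SD between repeats, since the lists give no depth for a counting interval. The repeat numbers did not pair the lists: deviations of same-numbered repeats correlated at -0.33, -0.28 and -0.0040 over the 203 sites. The genes named are the 10 assembly genes, genes that share their sites, genes of 4 iron-sulfur lists with a kept site, the 3 most alike sites by log2 enrichment and the neighbors in rank. Places with the same 11 bases, the nearest peaks outside the windows and the genes next to them were named besides. Members, lists and tests were chosen with earlier results of these data known. Alternatives changed the ranking value, centering, overlap, calls required, window, motif window and mismatches, and left out each repeat. Scripts were tested on simulated data. Input libraries and coverage tracks were not used here, and 1 result on mitochondrial iron-sulfur proteins is not reported here. Python 3.11.15, numpy 2.4.6, pandas 2.3.3 and matplotlib 3.10.9 were used.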

Additional observations from a re-analysis of the deposited data

Results flagged for a closer look

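Of 8 sets of 4 YPD values examined with Dixon's test at the 95% level, 2 held a repeat that lay apart from the other 3, where chance alone is expected to mark about 1 in 20. The rank of the *ISA1* site was 2 in YPD repeat 4 and 1 in the other 3 YPD repeats, so the gap made up the whole range (ratio 1). The position of the *ISU1* peak was XVI 297235 in YPD repeat 1 and 297234 in the other 3, also a ratio of 1. Both steps are the smallest that whole numbers allow, and with 3 equal values and 1 that differs the ratio can only be 1.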

How the results depend on the processing

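*ISA1* and *ISU1* were the genes with a kept site under all 15 alternatives, and their sites, but not the weak *ISA1* site, held CCGN5CGG under all 3 motif settings. With 1 mismatch allowed, 50.4% of all sites held it. Log2 enrichment centered on the median shared site moved the YPGly minus YPD difference past the threshold, at -1.28 for *ISA1* and -1.12 for *ISU1* (adjusted p = 0.0395 each, exact permutation test). The other 13 of 14 alternatives kept each rank difference on its side of the threshold, as did 10 of 10 for the ratio, but most of them cannot reach it: with a list left out, the smallest p is 0.0667 or 0.1. Leaving out each repeat gave rank differences of 1.67 to 2 for *ISA1* and 4 to 4.5 for *ISU1*, and -0.23 to -0.11 for the log2 ratio. Log2 enrichment without centering, added after the data were seen, is given above. With a replicate block over repeats 1 to 3, the differences were 2, 4.33 and -0.17 (p = 0.25, 0.25 and 0.5, exact permutation test, where 0.25 is the smallest possible). The exact depth behind the calls is unknown and the lists hold called peaks only, so a window without a peak does not show that Sef1 was absent.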
